A study of Rattus norvegicus with 6 samples.

Results

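The intercalated disc is the end-to-end contact between heart muscle cells. Gap junctions, built of connexins, let current pass from cell to cell there. Adherens junctions, which join the cadherin N-cadherin to the catenins, and desmosomes, which join desmosomal cadherins to plakoglobin, plakophilin and desmoplakin, hold the cells together and anchor actin and desmin filaments. Loss of desmosomal proteins is a known cause of arrhythmogenic cardiomyopathy, and less connexin at the disc is known to slow conduction in the ventricle.

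The connexins and disc proteins described here are 10 genes: the connexin genes Gja1, Gja4 and Gja5, the adherens junction genes Cdh2 and Ctnnb1, the desmosomal genes Jup, Pkp2, Dsp and Dsg2, and the scaffold gene Tjp1. They were looked up by symbol in the array's annotation, and every probe set that carried one of these symbols alone was taken. This gave 16 probe sets of 9 genes, of 15866 probe sets that are not controls and 10411 named genes in all. No probe set carried the symbol Dsg2, so that desmosomal cadherin was not analysed here. Gja1 had 3 probe sets, Ctnnb1 had 4, Gja5 and Cdh2 had 2 each, and the other 5 genes had 1 each.

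RNA came from the left ventricle of 3 diabetic rats and of 3 normal rats, and each heart was measured on 1 single-colour Affymetrix array. The labels do not say how diabetes was produced, how long it lasted, or the strain, sex and age of the animals. The question of the comparison is how transcript levels differ between hearts of diabetic and of normal rats. Signals are the deposited intensities on a linear scale, and ± after a signal is an SD over 3 arrays.

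All 6 arrays had been scaled to the same level, with means of 500.2 after trimming 2% of probe sets at each end. Pairs of arrays within a group correlated across probe sets at 0.965 to 0.972, and pairs between groups at 0.935 to 0.958. The heart muscle marker Atp2a2, the calcium pump gene, was bright, at 47961 ± 3981 in diabetic and 52535 ± 7898 in normal hearts. The lowest signal of a probe set in the cardiomyocyte list was 41.3. Of 16 tested cardiomyocyte probe sets none passed the test, and the summed cardiomyocyte signal overlapped between the groups. Of these 16, 13 had a log2 difference below 0, diabetic minus normal, with a median of -0.13. On the log2 scale the array's controls for beta-actin differed by -0.76 to -1.01 with no overlap of the groups, and those for Gapdh by -0.040 to -0.13 with overlap.

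Pkp2, the desmosomal plakophilin, and the brightest of 3 probe sets of Gja1, the main gap junction protein of ventricular muscle, had lower signals in every diabetic heart than in every normal heart. Diabetic means were at 68.1% of the normal mean for Pkp2 and at 59.9% for that Gja1 probe set, while the groups overlapped at the other Gja1 probe sets. Neither the Pkp2 nor the Gja1 difference passed the test across the whole array. Both Gja5 probe sets and 2 of the Ctnnb1 probe sets were also lower in every diabetic heart, with smaller differences or dim signals. Of all tested probe sets, 13.7% were separated in that direction, and the dim Gja5 probe set was not among those tested. Jup, Dsp, Tjp1 and Cdh2 had overlapping signals in the groups.

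A probe set was tested when its mean signal over the 6 arrays lay above the 40th percentile, a signal of 117.7, and 13 of the 16 probe sets passed this filter, at least 1 for each of the 9 genes. Differences are on the scale of log2(signal + 16), diabetic minus normal, with the standard error of limma's moderated fit, and called means an adjusted p under 0.05 by limma with Benjamini-Hochberg adjustment over 9518 probe sets. None of the 13 was called, where 2.57% of all tested probe sets were. At an unadjusted p under 0.05 by limma there were 3 (Gja1, Pkp2 and Ctnnb1 with 1 probe set each), where 19.9% of all tested probe sets had one. When limma's prior spread followed signal intensity, 2 were called, 1 each of Gja1 and Pkp2, beside 5.52% of all probe sets. Without the filter none of the 16 was called, beside 0.113%. Groups of 3 did not overlap at 5 of the 13, all of them lower in diabetic hearts, where 13.7% of all tested probe sets were separated in that direction. Differences were below 0 at 11 of the 13 and had a median of -0.20, while 52.1% of all tested probe sets were below 0 and their median was -0.013. Probe sets of 1 gene share their transcript, so these 13 are not independent of each other.

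**Figure D1:**
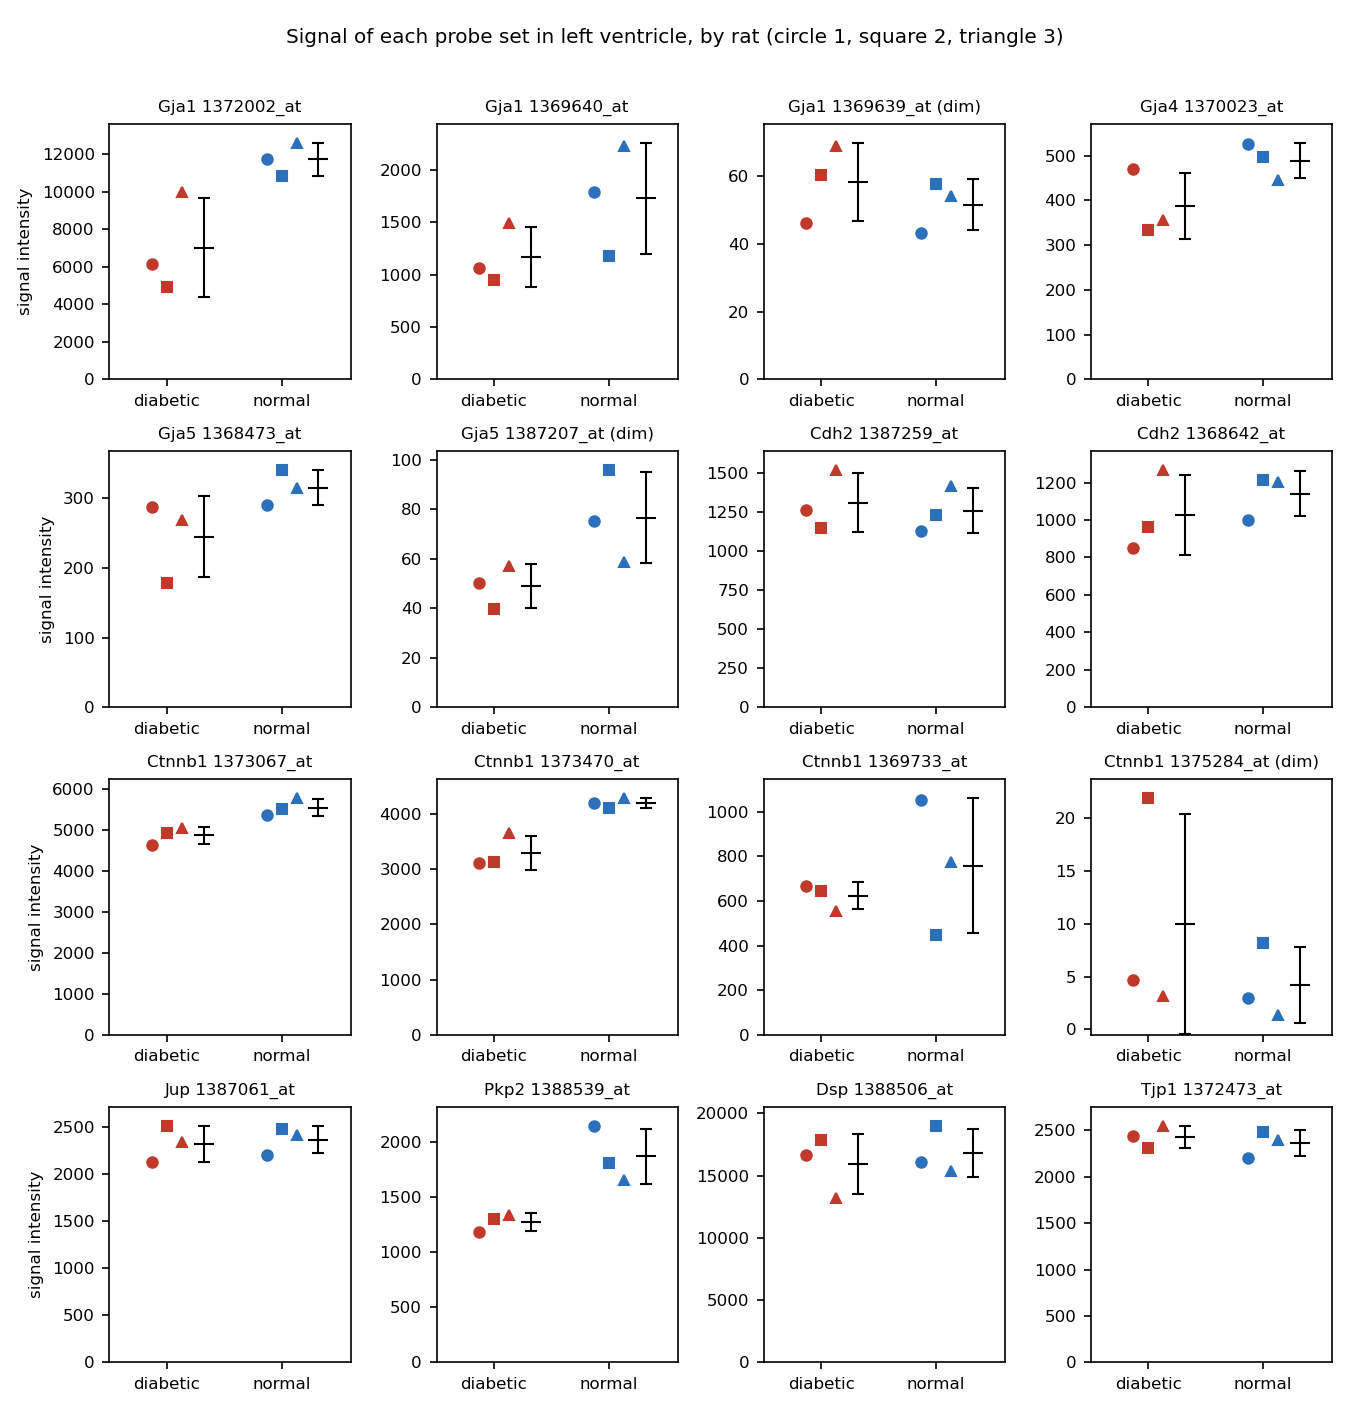
Signal intensity (linear axis from 0, or just below it where the error bar extends there) of the 16 probe sets in diabetic and normal left ventricle. Each point is 1 rat, and the black bar is the mean with its SD (n = 3). The Gja1 probe set 1372002_at and the Pkp2 probe set separate the groups, while the points of Jup, Dsp, Tjp1 and Cdh2 overlap (panels marked dim were below the filter).

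Gja1 encodes the connexin that carries most current between working ventricular cells. Its brightest probe set, 1372002_at, had signals of 6166, 4909 and 9988 in diabetic hearts 1, 2 and 3, against 11758, 10830 and 12581 in normal hearts 1, 2 and 3. Diabetic heart 3 lay just under the lowest normal heart, at 85.2% of the normal mean, and diabetic hearts 1 and 2 lay at 52.6% and 41.9% of it. The difference was -0.80 ± 0.24 on the log2 scale (limma adjusted p = 0.118), with a 95% interval of -1.36 to -0.24 before any adjustment for multiple tests. Diabetic hearts averaged 7021 ± 2645 and normal hearts 11723 ± 876, so the spread among diabetic hearts was the wider one.

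In that spread diabetic heart 3 lay above the mean of its group and diabetic heart 2 farthest below it. Without diabetic heart 3 the difference was -1.09 on the log2 scale and passed the test (limma adjusted p = 0.0365). Without diabetic heart 2 it was -0.58 (limma adjusted p = 0.271). With every heart kept, the probe set was called when the prior spread followed intensity (limma adjusted p = 0.0490). Over all 15 alternatives the adjusted p ran from 0.0365 to 0.315, and the sign was negative in each.

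The second Gja1 probe set, 1369640_at, had signals of 1061, 948 and 1489 in diabetic hearts 1, 2 and 3, against 1786, 1174 and 2228 in normal hearts 1, 2 and 3. Diabetic heart 3 was again the highest of its group and diabetic heart 2 the lowest, and normal heart 3 was the highest of the normal ones at both probe sets. The groups overlapped here, because normal heart 2 lay below diabetic heart 3. The difference was -0.54 ± 0.26 on the log2 scale (limma adjusted p = 0.288), and it was -0.34 without normal heart 3.

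The third Gja1 probe set, 1369639_at, was dim, with signals of 46.0 to 68.7 in diabetic and 43.1 to 57.5 in normal hearts. It lay below the filter, and its groups overlapped. Without the filter its difference was 0.13 ± 0.19 on the log2 scale, so it differed in sign from the other Gja1 probe sets but by less than its standard error.

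Gja5 and Gja4 encode connexins that in the heart are known from arterial endothelium, and Gja5 also from atrial muscle and the fast conduction fibres of the ventricle. The brighter Gja5 probe set, 1368473_at, had signals of 287.5, 178.7 and 268.8 in diabetic hearts, against 291.3, 340.4 and 315.7 in normal hearts. The groups did not overlap, although diabetic heart 1 lay close to normal heart 1. The difference was -0.37 ± 0.19 on the log2 scale (limma adjusted p = 0.327), and without diabetic heart 2 it was -0.17.

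The other Gja5 probe set, 1387207_at, was below the filter, with signals of 50.4, 39.7 and 57.0 in diabetic and 75.4, 95.8 and 58.9 in normal hearts. Its groups also did not overlap, with diabetic heart 3 close to normal heart 3. Without the filter its difference was -0.50 ± 0.21 on the log2 scale (limma adjusted p = 0.395). Both Gja5 probe sets were lowest in diabetic heart 2 and highest in normal heart 2.

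Gja4 had signals of 471.3, 333.1 and 357.3 in diabetic hearts, against 525.0, 496.1 and 446.4 in normal hearts. Diabetic heart 1 lay above normal heart 3, so the groups overlapped. The difference was -0.34 ± 0.17 on the log2 scale (limma adjusted p = 0.311), and it ran from -0.48 without diabetic heart 1 to -0.24 without diabetic heart 2.

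All 4 tested connexin probe sets thus had differences below 0, from -0.80 to -0.34 on the log2 scale, and none was called. In whole ventricle, fewer cells of a type and less RNA per cell cannot be told apart. Of 15 tested endothelial marker probe sets 1 fell, Tie1, an endothelial receptor (log2 -0.94), and none rose. The summed endothelial signal was 15223 to 15647 in diabetic and 14007 to 16166 in normal hearts. The part of endothelial cells in the Gja4 and Gja5 values was not tested. Of the conduction system markers only 1 probe set passed the filter, that of the pacemaker channel gene Hcn2, and it was not called. Their summed signal was 676 to 1485 in diabetic and 1025 to 1090 in normal hearts.

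**Figure D2:**
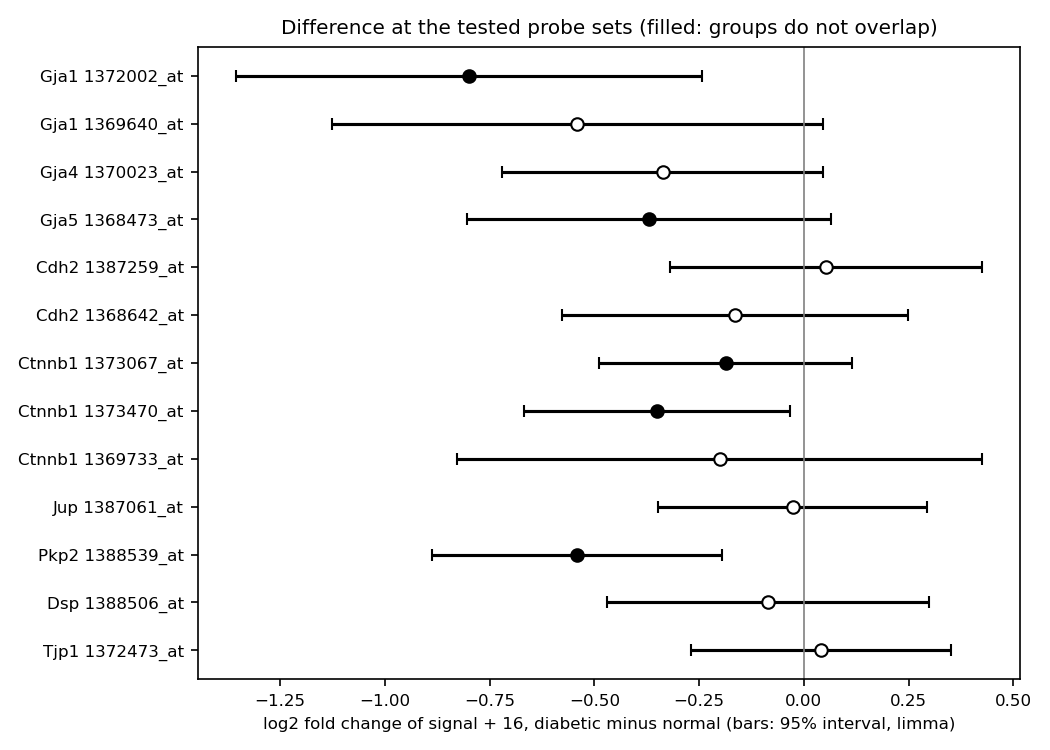
Differences at the 13 tested probe sets as log2 fold change of signal + 16, diabetic minus normal, with 95% intervals from limma that are not adjusted for multiple tests. Filled points mark groups that do not overlap. The Gja1 probe set 1372002_at lies farthest from 0 at -0.80, and Pkp2 lies at -0.54. Only the intervals of these and of the Ctnnb1 probe set 1373470_at exclude 0, and all others span it.

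Pkp2 encodes the plakophilin of heart desmosomes, which ties desmoplakin to the desmosomal cadherins and is also known to help hold the sodium channel and connexins at the disc. Its 1 probe set, 1388539_at, had signals of 1187, 1306 and 1339 in diabetic hearts, against 2151, 1812 and 1661 in normal hearts. The diabetic hearts lay close together and all below the lowest normal heart. The difference was -0.54 ± 0.15 on the log2 scale (limma adjusted p = 0.0972), with a 95% interval of -0.89 to -0.19 before adjustment for multiple tests.

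Of the 13 probe sets this one had the smallest adjusted p in the reported fit. With any 1 heart left out its difference stayed between -0.62 and -0.44, with limma adjusted p from 0.159 to 0.224. It was called when the prior spread followed intensity (limma adjusted p = 0.0412) and in no other alternative.

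**Figure D3:**
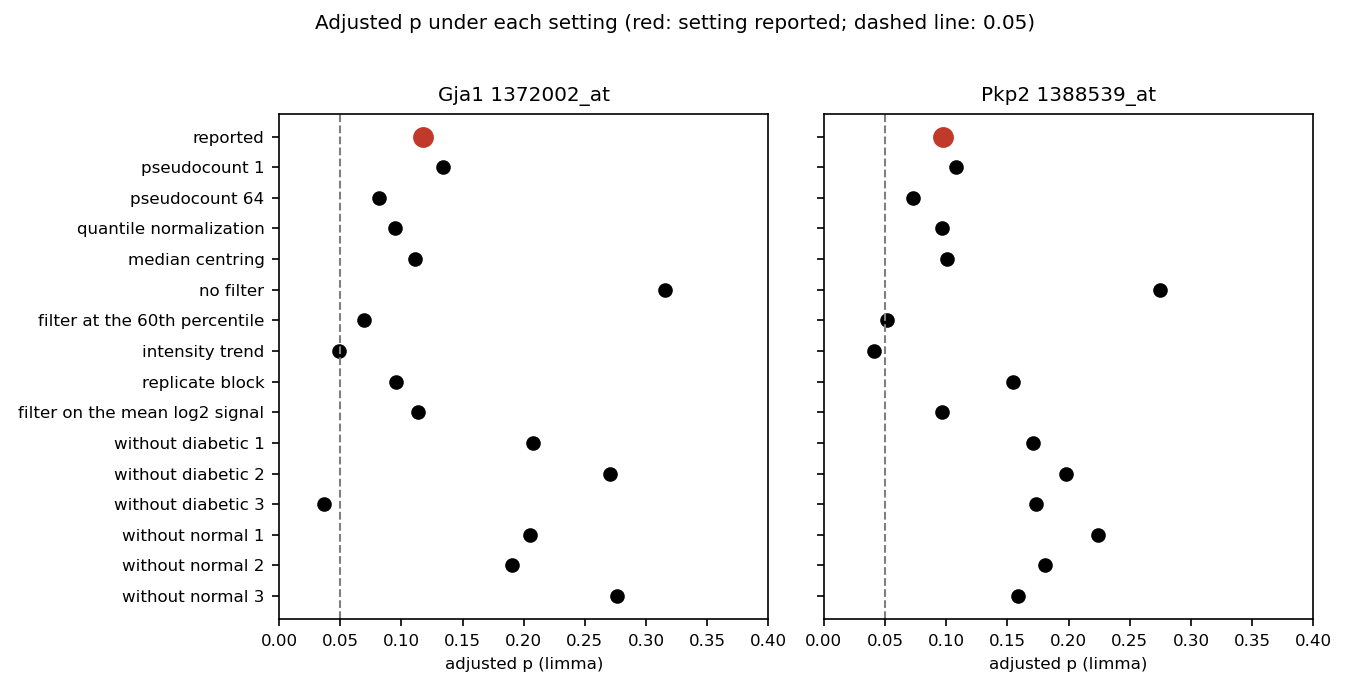
Adjusted p by limma of the brightest Gja1 probe set and of the Pkp2 probe set under the reported setting (red) and 15 alternatives (black), with the threshold of 0.05 dashed. Gja1 falls below the line with the intensity trend and without diabetic heart 3, and Pkp2 with the intensity trend alone.

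Signals of the other measured desmosomal genes overlapped between the groups. Dsp encodes desmoplakin, which links the desmosome to desmin filaments. It had signals of 16666, 17850 and 13199 in diabetic hearts, against 16076, 19004 and 15374 in normal hearts. Diabetic heart 3 was the lowest of all 6. The difference was -0.086 ± 0.17 on the log2 scale, with an interval of -0.47 to 0.30 (limma adjusted p = 0.833).

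Jup encodes plakoglobin, a catenin found in both desmosomes and adherens junctions. It had signals of 2126, 2506 and 2337 in diabetic hearts, against 2204, 2476 and 2411 in normal hearts. Its group means were close, at 2323 ± 190 in diabetic and 2364 ± 142 in normal hearts. The difference was -0.026 ± 0.14 on the log2 scale, and its interval of -0.35 to 0.29 leaves room for a shift of that size in either direction (limma adjusted p = 0.943).

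Ctnnb1 encodes beta-catenin, which binds N-cadherin at the adherens junction and also acts in the nucleus in Wnt signalling. Its brightest probe set, 1373067_at, had signals of 4631, 4911 and 5046 in diabetic hearts, against 5349, 5490 and 5767 in normal hearts. The next, 1373470_at, had 3109, 3124 and 3652 in diabetic hearts, against 4191, 4106 and 4287 in normal hearts. At both the groups did not overlap, and diabetic heart 3 was the highest of its group. The differences were small, at -0.19 ± 0.13 (limma adjusted p = 0.484) and -0.35 ± 0.14 (limma adjusted p = 0.206) on the log2 scale.

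The third Ctnnb1 probe set, 1369733_at, had signals of 667, 646 and 553 in diabetic hearts, against 1053, 448 and 772 in normal hearts. Normal hearts 1 and 2 were the highest and the lowest of all 6. Its difference of -0.20 ± 0.28 on the log2 scale turned to 0.073 without normal heart 1. The fourth, 1375284_at, had signals of 3.2 to 21.9 in diabetic and 1.4 to 8.2 in normal hearts, at the low end of the array. Without the filter its difference was 0.30 ± 0.30 on the log2 scale.

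Cdh2 encodes N-cadherin, the classical cadherin of the heart. Its brighter probe set, 1387259_at, had signals of 1265, 1148 and 1519 in diabetic hearts, against 1131, 1232 and 1417 in normal hearts, a difference of 0.053 ± 0.16 on the log2 scale (limma adjusted p = 0.9). The other, 1368642_at, had 850, 963 and 1266 in diabetic hearts, against 1001, 1215 and 1205 in normal hearts, a difference of -0.16 ± 0.18 (limma adjusted p = 0.676). At both the groups overlapped, and diabetic heart 3 was the highest of all 6.

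Tjp1 encodes ZO-1, the scaffold that binds the tail of the main ventricular connexin at the edge of gap junctions. It had signals of 2440, 2306 and 2542 in diabetic hearts, against 2206, 2481 and 2399 in normal hearts. The groups overlapped. The difference was 0.041 ± 0.14 on the log2 scale, with an interval of -0.27 to 0.35 (limma adjusted p = 0.905).

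Markers of other cell types, some of which also make these proteins, were set beside them. Fibroblasts are known to carry Gja1 and cadherins, and of 14 tested fibroblast probe sets 6 fell and none rose, namely those of the matrix genes Col1a1, Col1a2, Col3a1 and Lum. The summed fibroblast signal was 27098 to 29492 in diabetic and 43847 to 47364 in normal hearts, while Dcn, the brightest fibroblast marker, had 14186 ± 1010 in diabetic and 14343 ± 1835 in normal hearts. Of 6 tested atrial probe sets 2 rose, those of Nppa, the atrial natriuretic peptide (log2 2.76), and Dkk3 (log2 0.92). The summed atrial signal was 37823 to 47566 in diabetic and 16579 to 19895 in normal hearts. Without Nppa it was 18091 to 18836 in diabetic and 13317 to 15961 in normal hearts. Whether these rises came from atrial cells or from ventricular muscle was not tested. Summed smooth muscle and pericyte signals were 15750 to 17497 in diabetic and 14506 to 15738 in normal hearts, but most of this sum was Des, the desmin gene, which heart muscle also expresses. Without Des the sums were 4725 to 5415 in diabetic and 5780 to 6594 in normal hearts, so the direction turned. Of the 10 tested probe sets of this list 7 were below 0, with a median of -0.18, and 1, that of Mcam, fell. The nerve and Schwann sum was 2151 to 2297 in diabetic and 2358 to 2573 in normal hearts, with none of 2 tested probe sets called. None of 8 macrophage and leukocyte, 1 epithelial and mesothelial and 4 erythroid probe sets was called, and the summed signals of these lists overlapped between the groups. Marker signals went as low as 1.1 in the atrial, 3.9 in the conduction system and 4.2 in the epithelial and mesothelial list. Some markers were thus at the low end of the array. The part of these other cells in the differences of Gja1, Pkp2, Ctnnb1 and Gja5 was not tested.

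**Figure D4:**
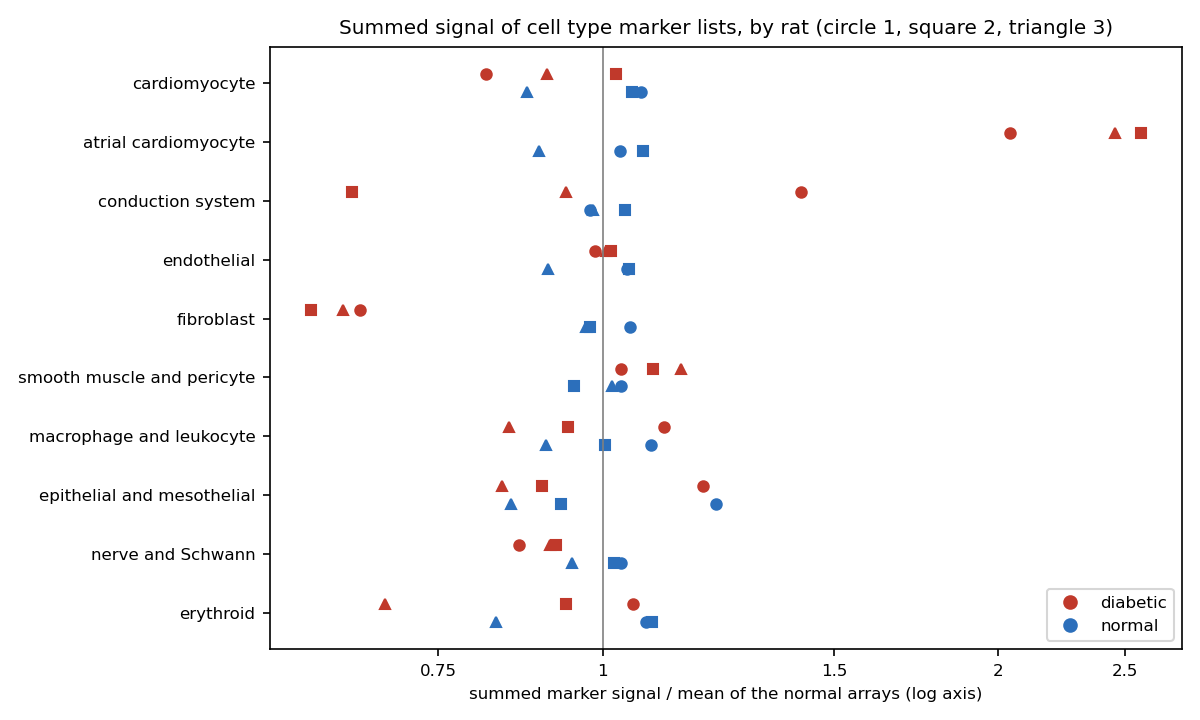
Summed signal of 10 cell type marker lists, divided by the mean of the normal arrays (log axis), with 1 point per rat. Fibroblast sums lie at 0.6 to 0.65 in diabetic and 0.97 to 1.05 in normal hearts, atrial sums at 2.04 to 2.57 in diabetic and 0.89 to 1.07 in normal hearts, and cardiomyocyte and endothelial sums overlap.

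Around these genes, 7 lists of other junction genes held 136 genes, of which 100 were on the array and 71 passed the filter with 93 probe sets. Of these 93, 1 rose and 1 fell, which is 2.15% against 2.57% of all tested probe sets, and their median was -0.0085 on the log2 scale, against -0.013 over all tested probe sets. The fall was that of Scn4b, a beta subunit that modulates the cardiac sodium channel. It had signals of 1120, 736 and 648 in diabetic hearts, against 2014, 2516 and 2146 in normal hearts (log2 -1.43 ± 0.21, limma adjusted p = 0.0136). Without diabetic heart 2 its adjusted p was 0.0527. The other 5 tested disc channel and ankyrin probe sets were not called, among them Cav3, the muscle caveolin (log2 -0.56 ± 0.18, limma adjusted p = 0.133).

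The rise was that of Dkk3, a secreted member of the Dickkopf family, in the list of beta-catenin pathway genes. Dkk3 had signals of 3015, 2842 and 3437 in diabetic hearts, against 1561, 1677 and 1642 in normal hearts (log2 0.92 ± 0.14, limma adjusted p = 0.0145). Dkk3 is also in the atrial marker list, where Nppa rose too, and whether either rise came from atrial cells was not tested. The adjusted p of Dkk3 was at most 0.055 with 1 heart left out, and the call was lost without normal heart 3 and without diabetic heart 3. The other 23 probe sets of this list were not called, Ccnd1, the cyclin D1 gene that beta-catenin is known to induce, among them (log2 -0.68 ± 0.17 at its brightest probe set, limma adjusted p = 0.0808), and Sfrp1, a secreted Wnt antagonist (log2 0.62 ± 0.18, limma adjusted p = 0.105).

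None of 20 other adherens junction probe sets was called, with a median of -0.092 on the log2 scale. The smallest adjusted p was that of Cdh11, a cadherin of mesenchymal cells, at -1.09 ± 0.24 (limma adjusted p = 0.0519), followed by Ctnnbip1, which binds beta-catenin, at -0.46 ± 0.15 (limma adjusted p = 0.142). Cdh11 passed with median centring (limma adjusted p = 0.0457) and with several other alternatives. Cdh11 and the fibroblast sums given above were both lower in diabetic hearts. Among normal hearts, heart 1 had the highest fibroblast sum and the lowest Cdh11 signal. Among diabetic hearts, heart 2 was the lowest in both. The part of fibroblasts in the Cdh11 difference was not tested. In the list of other desmosome genes none of 8 probe sets was called and 7 were above 0, with a median of 0.41. Over all tested probe sets 52.1% were below 0 and the median was -0.013. The list is a loose one that also holds the desmin gene Des, so its median does not stand for desmosome proteins as a class. The 8 probe sets came from 6 genes, so they are not independent of each other. The smallest adjusted p there were those of Perp, a desmosomal membrane protein, at 0.81 ± 0.21 (limma adjusted p = 0.0821) and Pnn at 0.69 ± 0.22 (limma adjusted p = 0.134). The brighter probe set of each gene lay closer to 0, at 0.47 ± 0.23 for Perp (limma adjusted p = 0.299) and 0.076 ± 0.25 for Pnn (limma adjusted p = 0.905). The probe sets above 0 also included Pkp4, a plakophilin relative, at 0.45 ± 0.15, and Des, the desmin gene, at 0.37 ± 0.13. The desmosomal cadherin gene Dsc2 lay near 0, at 0.031 ± 0.17 (limma adjusted p = 0.947).

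None of 10 other scaffold and tight junction probe sets was called. Magi3, a membrane scaffold, had the smallest adjusted p, at -0.65 ± 0.18 (limma adjusted p = 0.0916) at the brighter of its 2 tested probe sets and with an adjusted p of 0.0811 at the other, also lower in diabetic hearts, and Dlg1 followed at -0.36 ± 0.19 (limma adjusted p = 0.331), with 0.20 ± 0.17 (limma adjusted p = 0.578) at its other tested probe set. Of 24 probe sets for regulators of connexins and junctions none was called, with a median of -0.027. The smallest adjusted p were those of Dbn1, drebrin, an actin binding protein that also binds the main ventricular connexin, at -0.53 ± 0.14 (limma adjusted p = 0.0901), and Prkca, a protein kinase C, at -0.56 ± 0.19 (limma adjusted p = 0.148). Transcription factors known to act on Gja1 and Gja5 were not called either, with Tbx5 at 0.50 ± 0.23 and Nkx2-5 at -0.067 ± 0.14. Of 7 other connexins on the array only Gja3 passed the filter, at -0.32 ± 0.17 (limma adjusted p = 0.328).

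**Figure D5:**
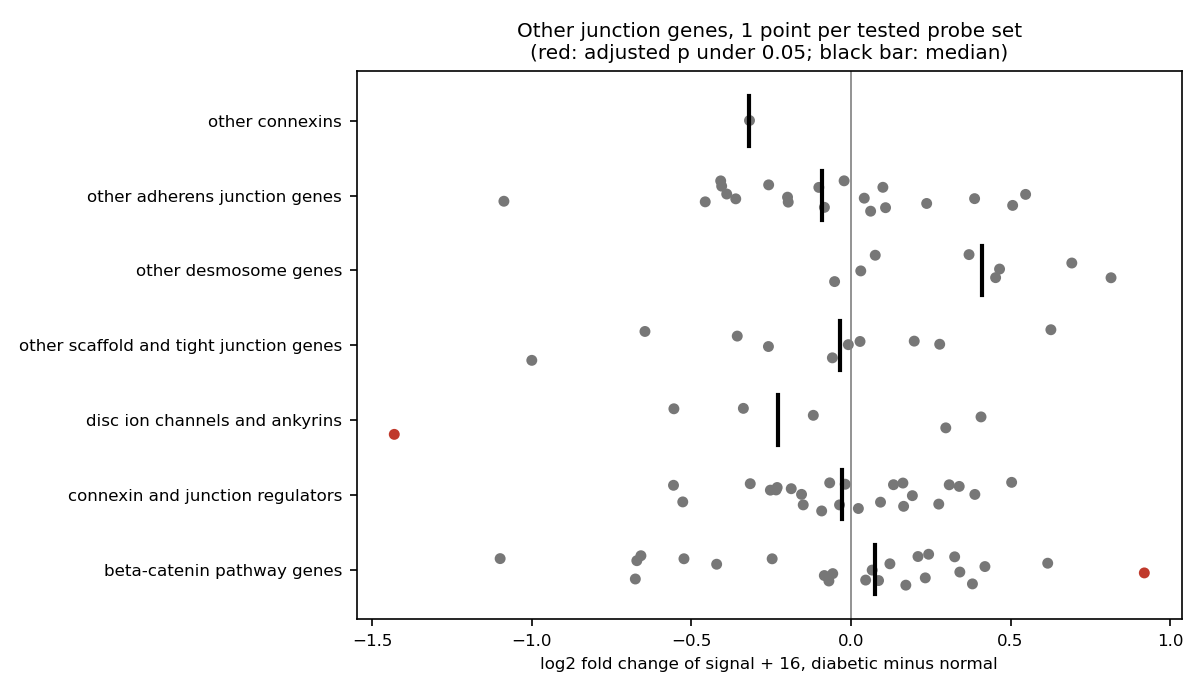
Log2 fold change of signal + 16, diabetic minus normal, for the 93 tested probe sets of 7 lists of other junction genes, 1 point each, with the median of each list as a black bar. Red points passed the test: Scn4b at -1.43 and Dkk3 at 0.92. The desmosome list, which also holds the desmin gene Des, has its median at 0.41, and the others lie between -0.32 and 0.08.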

How the data were processed

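The authors deposited a linear signal intensity for each probe set. Per the labels' protocols the steps were standard Affymetrix ones. Which software and background correction were used is not stated there. Deposited intensities had equal trimmed means and were used as they stand. No detection calls were used, so the number of arrays and the low end of the signals limit the precision. For 1 gene the smallest exact permutation p that these group sizes allow is 0.1, so calls rest on limma.

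Of 15923 probe sets, 57 controls were left out. Names came from the array's annotation (1 gene for 12783, several for 312, none for 2771), updated through a rat gene table (GRCr8, for names only). Probe sets whose mean signal lay at or below the 40th percentile were left out, blind to group. Values were taken as log2(signal + 16) and fitted with limma 3.58.1 (R 4.3.3) on all 9518 probe sets. The code was tested on simulated data with 200 planted changes. The members and gene lists were chosen with earlier results of these data known. Named from the lists are the genes that passed and up to 2 per list with the smallest p. From the marker lists the 2 brightest genes could be named. Others (Pkp4, Des, Dsc2, Tbx5, Nkx2-5, Mcam, Tie1, Col1a1, Col1a2 and Lum) were named after their values were seen. The alternatives changed the pseudocount (1 or 64), the scaling (quantile or median), the filter (none, or the 60th percentile), the prior (following intensity), the block (replicate number) or the arrays (each left out). A filter on the mean log2 signal and marker sums without Des or Nppa were added after seeing the data. The series' design text names 3 rats per group. Figures were drawn with matplotlib 3.10.9.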

Additional observations from a re-analysis of the deposited data

How the results depend on the processing

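Signs and calls of the 13 tested probe sets were compared under 15 alternatives, giving 194 values (the Gja5 probe set did not pass the stricter filter), of which 183 kept sign and side of the threshold, 3 newly passed and 8 changed sign. Those that changed sign did so with 1 array left out and were at most 0.073 in size. On the log2 scale the range with 1 array left out was -0.057 to 0.14 for Cdh2 (1387259_at; -0.021 without normal 1), -0.53 to 0.073 for Ctnnb1 (1369733_at), -0.082 to 0.036 for Jup (0.0078 without normal 2), -0.18 to 0.042 for Dsp (0.0051 without normal 2) and -0.0072 to 0.078 for Tjp1. The count of called disc probe sets, 0 as reported, was 2 with the intensity trend and 0 to 1 with an array left out. Of all probe sets, 245 were called as reported, 386 with a pseudocount of 64, 18 with no filter, 429 with the filter at the 60th percentile, 525 with the intensity trend, and 95 to 180 with an array left out. Called genes of the other junction lists numbered 2 as reported, 0 with no filter, 5 with the stricter filter, 5 with the intensity trend and 1 to 2 with an array left out. Beside Scn4b and Dkk3, these were Perp, Magi3 and Ccnd1 with the stricter filter and Cdh11, Perp and Ccnd1 with the intensity trend. The cause of these shifts was not tested. Deviations of arrays with the same replicate number correlated weakly, at 0.082, 0.029 and 0.013 for numbers 1, 2 and 3. Pairs of unlike numbers ran from -0.090 to 0.068. Diabetic 1 and 2 correlated best with the normal array of their own number, and diabetic 3 with normal 2. Correlations this small cannot decide whether the numbers pair the samples. With the replicate number as a block, 163 probe sets were called, and of the disc probe sets none.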
